A study of Mus musculus with 12 samples.

Results

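Macrophage genes were followed in the hearts of mice that ate a diet with or without branched-chain amino acids (BCAA, the amino acids leucine, isoleucine and valine) and then had sham surgery or transverse aortic constriction (TAC), in which the aortic arch is tied narrower so that the left ventricle has to pump against a higher pressure. The set is 34 genes chosen by name as markers of cardiac macrophages, and each was found by its symbol in all 4 deposited tables, which together list 16514 genes. It holds 5 genes of macrophages that reside in the heart (Lyve1, Folr2, Timd4, Cd163 and Cbr2) and 4 genes of recruited or activated macrophages (Ccr2, Trem2, Gpnmb and Lgals3). The other 25 macrophage genes were grouped by molecular role and not assigned to either kind. All 34 passed the filter on low values in each comparison, and the fewest reads of any member in a library were 23, of Ccr2.

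The mice were male C57Bl/6J animals aged 12 weeks, and the tissue was the whole heart. There were 4 groups of 3 libraries: BCAA-free TAC and BCAA-free sham, on a diet from which BCAA were left out, and control TAC and control sham, on a diet with BCAA at the level of ordinary chow. Both diets contained 1% propionate, so no group ate either diet without it. Each diet was given for 4 days before surgery and for the 1 week between surgery and the collection of the hearts. Whether each of the 3 libraries in a group had its own mouse is not stated by the labels; the p-values rest on library-to-library spread, part of which may be technical.

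Resident and recruited macrophages are usually told apart in the mouse heart. Resident macrophages settle there early in life, renew themselves in place and clear dying cells and debris, and they carry surface receptors such as LYVE1, TIMD4 and the folate receptor FOLR2. Others descend from blood monocytes, which enter through the chemokine receptor CCR2 when the heart is injured or overloaded, and phagocytes that take up lipid and debris make TREM2, GPNMB and galectin-3. In RNA from a whole heart, more cells of a type and more of its RNA per cell cannot be told apart, and several of these genes are also used by other cells.

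The 12 libraries held 29929161 to 46101244 reads assigned to genes. Levels are given as normalised reads, a gene's reads after division by its library's size factor, and levels of different genes are set against each other only per kilobase of exon. The 8 cardiomyocyte markers summed to 3006580 to 3364140 normalised reads in BCAA-free TAC, 2928350 to 3102570 in BCAA-free sham, 2662070 to 2919490 in control TAC and 2813620 to 2983750 in control sham hearts, so the defining markers of heart muscle were abundant in every library. Some libraries stood apart from their group in transcripts of other sources. Control TAC replicate 3 held 9546 normalised reads of 8 liver markers, against 410.2 to 1055 in the other libraries, and control TAC replicate 2 held 4461 of 3 RNA polymerase III transcripts, against 54.8 to 983. BCAA-free TAC replicate 1, in which 26 members were at their highest within the group, held 359 normalised reads of 7 T cell markers, against 48.7 and 69.4 in the other BCAA-free TAC libraries, and 10142 of 5 red cell markers, against 22824 and 28535. BCAA-free TAC replicate 2 held 2132 of 3 adipocyte markers, against 692 and 429.8. The part of these transcripts in the macrophage levels was not tested. Results from control TAC hearts are repeated with replicates 2 and 3 left out.

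Control TAC replicate 1 also stood apart, and it did so in the macrophage genes themselves. Of the 34 members, 33 were higher there than in the other control TAC libraries, and 20 were at their highest there among all 12 libraries. Another 10 were at their highest in BCAA-free TAC replicate 1. At the low end, 28 members had their lowest level in a BCAA-free sham library, 18 of them in replicate 1. As log2 levels relative to the control sham mean, the members averaged 0.69, 0.36 and 0.35 in the 3 BCAA-free TAC libraries, -0.44, -0.33 and -0.32 in the BCAA-free sham libraries, 0.86, 0.06 and 0.29 in the control TAC libraries and 0.01, -0.02 and 0.01 in the control sham libraries. The BCAA-free TAC libraries thus stood well apart from the BCAA-free sham libraries, whereas a single control TAC library lay far above control sham hearts.

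**Figure D1:**
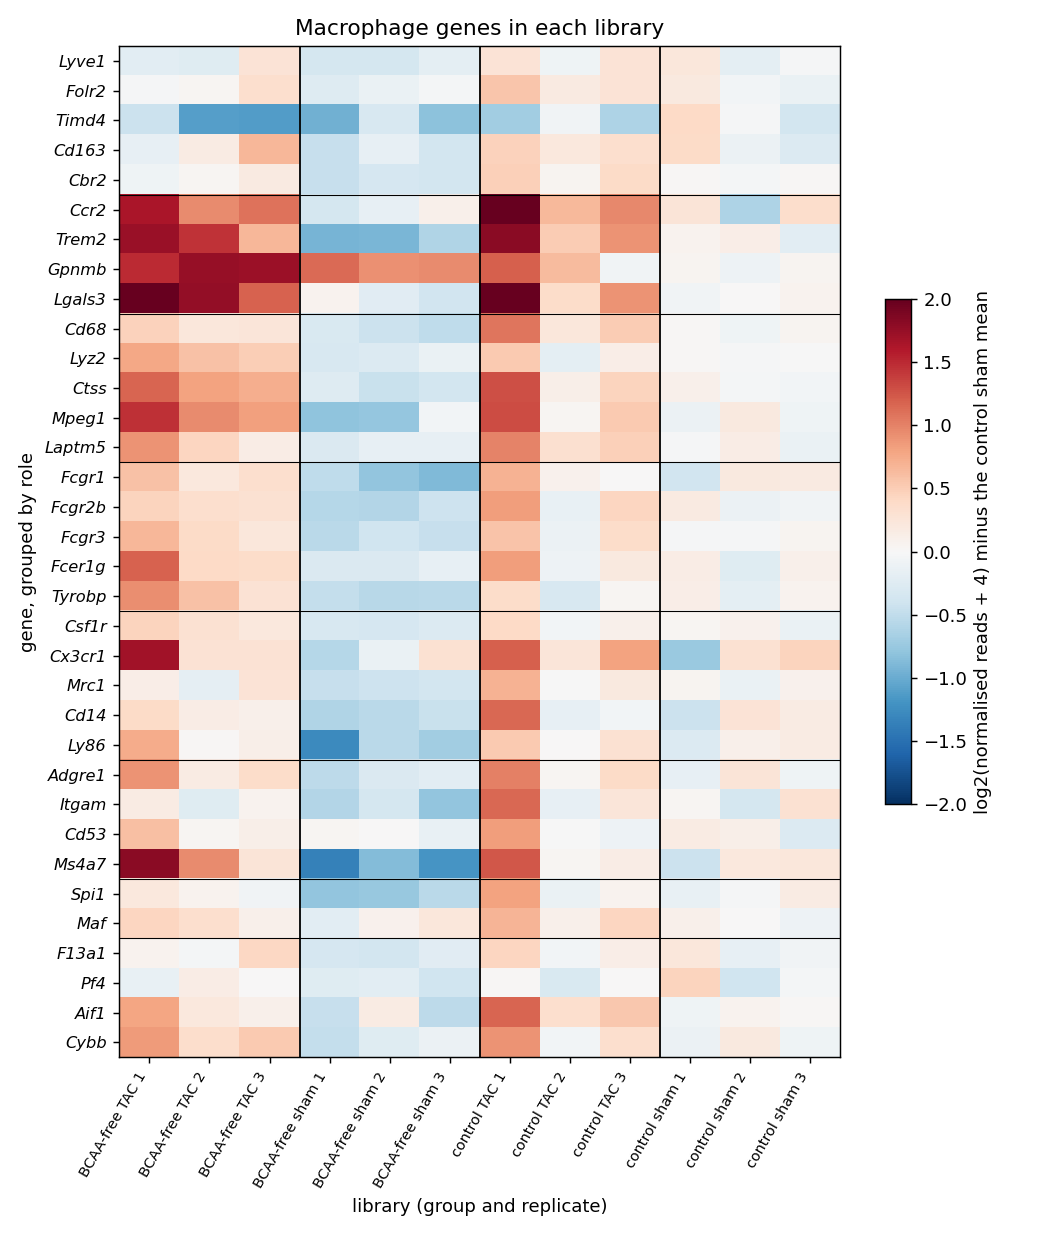
Heat map of the 34 members (rows, grouped by role) in the 12 libraries (columns, grouped by diet and surgery), as log2(normalised reads + 4) minus the mean of the control sham libraries; the colour scale ends at 2 in each direction. BCAA-free TAC replicate 1 and control TAC replicate 1 are the reddest columns, and 28 of the 34 genes are lowest in a BCAA-free sham library.

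TAC on the BCAA-free diet came with higher levels of most macrophage genes. Between BCAA-free TAC and BCAA-free sham hearts, 24 of 34 members rose and 0 fell (limma, adjusted p under 0.05), where 2.94% of all genes tested rose and 1.37% fell. The median log2 difference of the members was 0.75, against -0.0030 over all genes, and in 29 members every BCAA-free TAC library was above every BCAA-free sham library, as it was in 14% of all genes. The edgeR test called 24 (2.94% of all genes) and DESeq2 called 25 (4.75%), all of them higher. By role, 1 of 5 resident genes rose, 4 of 4 recruited or activated genes, 5 of 5 genes of lysosomes and phagocytosis, 5 of 5 Fc receptors and adaptors, 4 of 5 growth factor, chemokine and pattern receptors, 2 of 4 surface markers, 1 of 2 transcription factors and 2 of 4 secreted and effector proteins.

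Of the recruited or activated genes, Trem2, Lgals3 and Ccr2 were among the 5 members with the largest differences, and Gpnmb lay below the median of the members. Trem2, a lipid-sensing receptor of phagocytes, had 279, 228 and 131 normalised reads in BCAA-free TAC hearts, 40.5, 40.9 and 52.3 in BCAA-free sham hearts, 294, 117 and 155 in control TAC hearts and 85.6, 89.4 and 69.6 in control sham hearts. On both diets every TAC library was above every sham library, and the BCAA-free sham libraries were the lowest of all. Trem2 rose 4.30-fold with TAC on the BCAA-free diet (log2 2.10 ± 0.26 SE, adjusted p = 0.00313). Lgals3 encodes galectin-3, a sugar-binding protein that activated macrophages secrete and that other heart cells can also make. It had 481, 392 and 262 normalised reads in BCAA-free TAC hearts, 118, 95.9 and 86.1 in BCAA-free sham hearts, 478, 147 and 214 in control TAC hearts and 107, 114 and 119 in control sham hearts. Lgals3 rose 3.60-fold on the BCAA-free diet (1.85 ± 0.21, adjusted p = 0.00273), and its BCAA-free TAC libraries did not overlap with either sham group.

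Ccr2, the receptor through which monocytes follow the chemokine CCL2 out of the blood, had 144, 87.5 and 97.3 normalised reads in BCAA-free TAC hearts, 33.3, 38.2 and 47.2 in BCAA-free sham hearts, 249, 70.2 and 88.2 in control TAC hearts and 52.8, 27.1 and 56.5 in control sham hearts. Every TAC library was above every sham library of its diet, and control TAC replicate 1 was far above the rest. Ccr2 rose 2.58-fold on the BCAA-free diet (1.37 ± 0.23, adjusted p = 0.0120). Gpnmb, a membrane glycoprotein of lysosome-rich phagocytes, behaved differently from the other 3 in that the diets also stood apart. It had 157, 188 and 184 normalised reads in BCAA-free TAC hearts, 122, 104 and 107 in BCAA-free sham hearts, 127, 85.3 and 50.5 in control TAC hearts and 55.4, 49.4 and 55.4 in control sham hearts. Its BCAA-free groups did not overlap, while control TAC replicate 3 lay among the control sham libraries. Its rise with TAC on the BCAA-free diet was the smallest of the 4 (0.65 ± 0.15, adjusted p = 0.0357).

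The resident genes moved less. Cbr2, a carbonyl reductase, had 614, 672 and 735 normalised reads in BCAA-free TAC hearts, 473, 514 and 502 in BCAA-free sham hearts, 904, 673 and 849 in control TAC hearts and 662, 632 and 659.9 in control sham hearts. It is the resident gene that rose with TAC on the BCAA-free diet, by 1.35-fold (0.44 ± 0.10, adjusted p = 0.0309), and the BCAA-free sham libraries were its lowest. Cd163, a scavenger receptor for haemoglobin, had 714, 895 and 1275 normalised reads in BCAA-free TAC hearts, 583, 716 and 619 in BCAA-free sham hearts, 1103, 924 and 1018 in control TAC hearts and 1049, 740.0 and 663 in control sham hearts. BCAA-free TAC replicate 1 was level with the highest BCAA-free sham library in this gene, and the difference did not pass the threshold (0.55 ± 0.17, adjusted p = 0.0986).

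Lyve1, a hyaluronan receptor, had 671, 657 and 947 normalised reads in BCAA-free TAC hearts, 609, 613 and 681 in BCAA-free sham hearts, 949, 735 and 942 in control TAC hearts and 912, 679 and 769.7 in control sham hearts. The groups overlapped on both diets, and the log2 difference on the BCAA-free diet was 0.24 with a 95% interval of -0.05 to 0.53. Lymphatic endothelium also makes Lyve1, and the 3 listed of 4 markers of it summed to 2742 to 3141 normalised reads in BCAA-free TAC, 3633 to 4006 in BCAA-free sham, 2712 to 3111 in control TAC and 2959 to 3553 in control sham hearts. On the BCAA-free diet this sum was thus lower in TAC than in sham hearts, but the 3 markers did not move together. Prox1 fell past the threshold, while Pdpn had 243, 214 and 220 reads in BCAA-free TAC and 148, 144 and 127 in BCAA-free sham libraries. The part of lymphatic endothelium in the Lyve1 level was not tested. Folr2, a folate receptor, had 159, 166 and 205 normalised reads in BCAA-free TAC hearts, 135, 148 and 158 in BCAA-free sham hearts, 239.6, 184 and 197 in control TAC hearts and 186, 155 and 148 in control sham hearts, with a log2 difference of 0.26 (95% interval -0.07 to 0.58) on the BCAA-free diet, where the groups lay next to each other without overlap. Of its exon bases, 63.1% also lie in an antisense gene, Gm10602, so its reads may be shared.

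Timd4, which binds phosphatidylserine on dying cells, was the lowest of the resident genes and the one member whose difference with TAC was negative on both diets. It had 49.9, 29.8 and 29.5 normalised reads in BCAA-free TAC hearts, 33.3, 54.0 and 36.9 in BCAA-free sham hearts, 40.9, 65.2 and 43.2 in control TAC hearts and 91.9, 67.1 and 52.2 in control sham hearts. Neither difference passed the threshold (-0.18 with a 95% interval of -0.79 to 0.44 on the BCAA-free diet, -0.46 with an interval of -1.06 to 0.14 on the control diet), and the sign on the BCAA-free diet turned to 0.015 without BCAA-free sham replicate 2. Its 30 to 73 reads per library leave the difference imprecise.

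**Figure D2:**
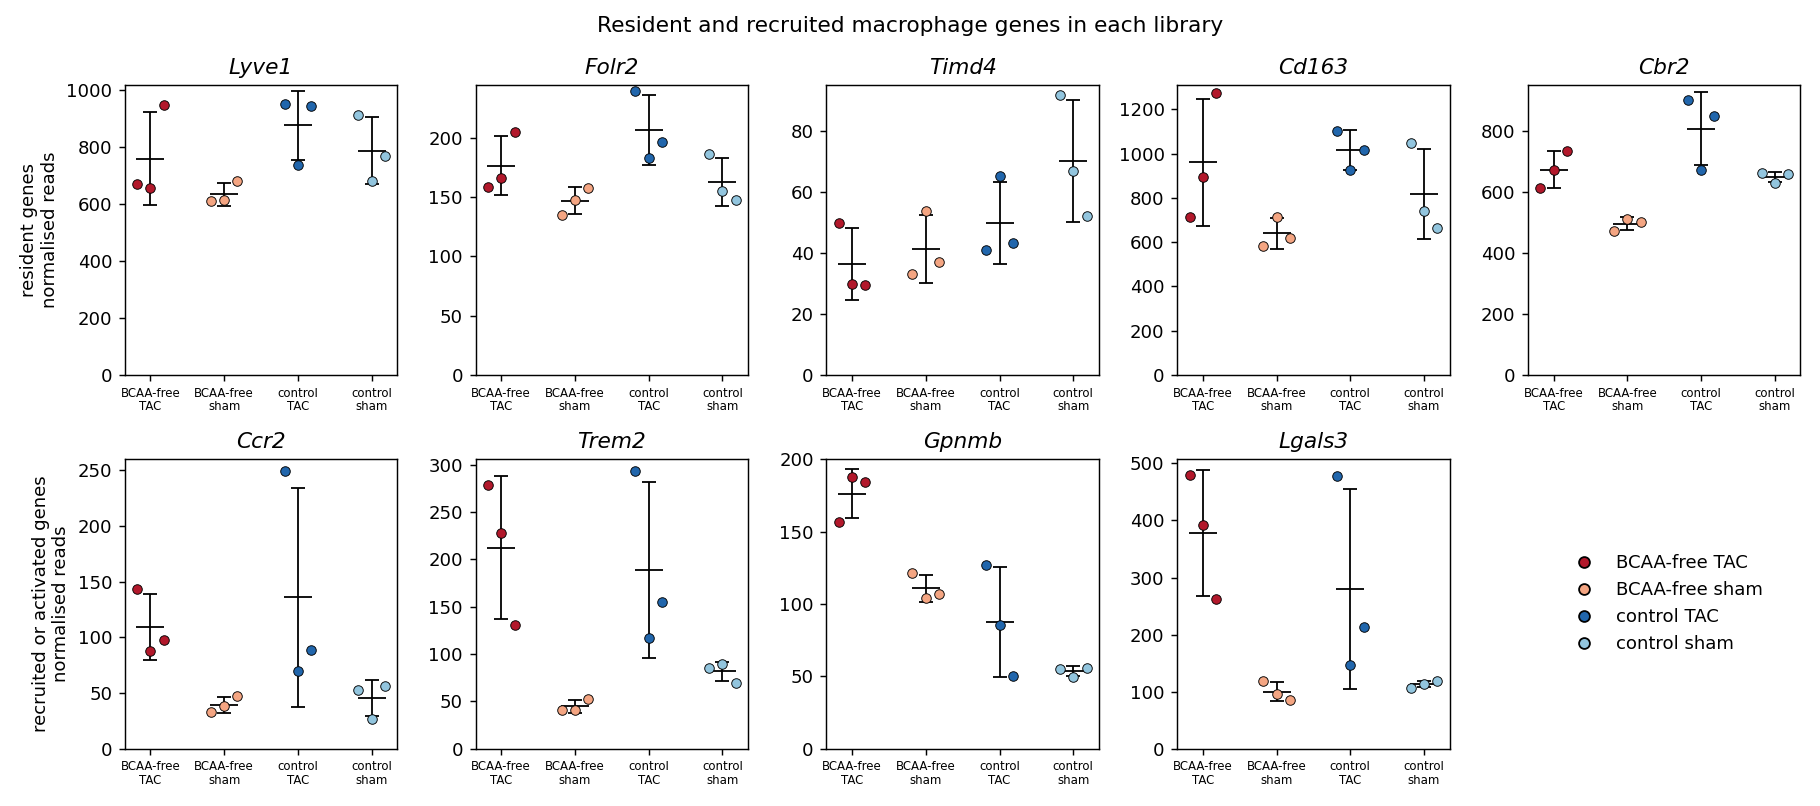
Normalised reads of the 5 resident genes (upper row) and the 4 recruited or activated genes (lower row) in each library, by group, with the group mean (horizontal bar) and SD (error bar, n = 3). Trem2 and Lgals3 are higher in every TAC library than in every sham library of the same diet, and control TAC replicate 1 is the top control TAC point in all panels except Timd4.

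On the BCAA-free diet the medians of the other 6 roles, 0.51 to 0.90, lay between those of the resident genes (0.26) and of the recruited or activated genes (1.61), with no test of the differences. Among genes of lysosomes and phagocytosis, Ctss, a protease that cuts antigens in lysosomes, had 829, 647 and 613 normalised reads in BCAA-free TAC hearts, 309, 269.9 and 284.0 in BCAA-free sham hearts, 903, 399 and 505 in control TAC hearts and 394, 360.0 and 353 in control sham hearts. It rose 2.39-fold on the BCAA-free diet (1.26 ± 0.12, adjusted p = 0.00125). Mpeg1, which encodes the pore-forming perforin-2 of phagocytes, had 910.3, 633 and 580.5 normalised reads in BCAA-free TAC hearts, 187, 191 and 315 in BCAA-free sham hearts, 819, 337 and 476 in control TAC hearts and 303, 376 and 311 in control sham hearts, and it rose 3.07-fold (1.62 ± 0.21, adjusted p = 0.00384). For both genes the BCAA-free TAC libraries lay above all sham libraries of both diets, while control TAC replicate 2 lay within or near the control sham range. Lyz2, the macrophage lysozyme and the member with the highest level per kilobase, rose 1.82-fold (0.87 ± 0.08, adjusted p = 0.00103). Its reads may be shared with the near-identical Lyz1. Cd68 (0.73) and Laptm5 (0.70), which encode membrane proteins of lysosomes, rose as well.

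Fc receptors bind antibody-coated particles, and FCER1G and TYROBP are adaptors that pass on the signals of surface receptors. Fcgr2b, the inhibitory member, had 447, 413 and 402 normalised reads in BCAA-free TAC hearts, 219, 217 and 243 in BCAA-free sham hearts, 587, 295 and 443 in control TAC hearts and 369.9, 301 and 312 in control sham hearts. Fcgr3, an activating receptor, had 537, 438 and 395 normalised reads in BCAA-free TAC hearts, 229.6, 254 and 244 in BCAA-free sham hearts, 499, 309 and 437 in control TAC hearts and 329.7, 331 and 348 in control sham hearts. In both, all BCAA-free TAC libraries were above all sham libraries, and all BCAA-free sham libraries were below the control sham ones. Fcgr2b and Fcgr3 each rose by 0.89 on the log2 scale on the BCAA-free diet, with adjusted p = 0.00313 and 0.00582. Tyrobp (1.13), Fcgr1 (1.10) and Fcer1g (0.90) also rose. The Fc receptors resemble each other in sequence, and how shared reads were counted is not given in the sources used here.

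Among receptors for growth factors, chemokines and microbial products, Csf1r, the receptor for the growth factor that macrophages need to survive, had 1839.9, 1666 and 1561 normalised reads in BCAA-free TAC hearts, 1079, 1068 and 1116 in BCAA-free sham hearts, 1779, 1297 and 1439 in control TAC hearts and 1390.3, 1427 and 1232 in control sham hearts. It rose 1.55-fold on the BCAA-free diet (0.63 ± 0.08, adjusted p = 0.00313). Ly86, which with a Toll-like receptor relative binds bacterial products, had 181, 108 and 116 normalised reads in BCAA-free TAC hearts, 41.6, 72.6 and 64.6 in BCAA-free sham hearts, 155, 107 and 133 in control TAC hearts and 88.1, 115 and 119.6 in control sham hearts, and it rose by 1.13 on the log2 scale (adjusted p = 0.0328). In each of these genes the BCAA-free groups did not overlap and the control groups did. Mrc1 (the mannose receptor, 0.49) and Cd14 (a co-receptor for bacterial lipopolysaccharide, 0.74) rose, while Cx3cr1, the fractalkine receptor, differed by 0.89 ± 0.35 with adjusted p = 0.179.

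Of the surface markers, Adgre1, which encodes the classical mouse macrophage antigen F4/80, had 503, 300.2 and 345 normalised reads in BCAA-free TAC hearts, 184, 218 and 231 in BCAA-free sham hearts, 539.7, 274 and 350.1 in control TAC hearts and 238, 320.0 and 250.0 in control sham hearts, and rose 1.77-fold on the BCAA-free diet (0.82 ± 0.18, adjusted p = 0.0309). Ms4a7, a membrane protein of macrophages, had 266, 143 and 87.7 normalised reads in BCAA-free TAC hearts, 26.0, 38.2 and 29.7 in BCAA-free sham hearts, 178, 75.2 and 80.9 in control TAC hearts and 52.8, 84.7 and 85.9 in control sham hearts. Its rise of 4.42-fold on the BCAA-free diet was the largest of the 34 (2.15 ± 0.34, adjusted p = 0.00835), and the BCAA-free TAC libraries differed among themselves by 3.03-fold. Itgam (0.58 ± 0.20, adjusted p = 0.127), an integrin chain that shares 68.7% of its exon bases with the overlapping gene Gm49368, and Cd53 (0.29 ± 0.18, adjusted p = 0.373), a membrane protein of leukocytes, did not pass the threshold.

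Cybb, the catalytic chain of the phagocyte NADPH oxidase, had 418, 294 and 330.1 normalised reads in BCAA-free TAC hearts, 164, 193 and 212 in BCAA-free sham hearts, 432, 221 and 292 in control TAC hearts and 211, 265 and 216 in control sham hearts, and rose by 0.86 on the log2 scale on the BCAA-free diet (adjusted p = 0.0151). Aif1, which encodes the actin-bundling protein IBA1, had 113, 73.6 and 68.6 normalised reads in BCAA-free TAC hearts, 44.7, 71.7 and 43.1 in BCAA-free sham hearts, 146, 81.2 and 93.7 in control TAC hearts and 59.1, 67.1 and 64.1 in control sham hearts. Its BCAA-free groups overlapped, with a difference of 0.65 ± 0.26 and adjusted p = 0.182. F13a1, the transglutaminase subunit of coagulation factor XIII, rose by 0.46, and Pf4, a chemokine that platelets also carry, differed by 0.29 ± 0.12 with adjusted p = 0.186.

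Spi1 encodes PU.1, the transcription factor on which the macrophage lineage depends. It had 206, 188 and 169 normalised reads in BCAA-free TAC hearts, 102, 103 and 121 in BCAA-free sham hearts, 314, 162 and 187 in control TAC hearts and 161, 175 and 200.0 in control sham hearts, and it rose 1.70-fold on the BCAA-free diet (0.77 ± 0.15, adjusted p = 0.0203). Maf, a factor of mature and resident macrophages, had 946, 887 and 749 normalised reads in BCAA-free TAC hearts, 605, 741 and 818 in BCAA-free sham hearts, 1125, 751 and 938 in control TAC hearts and 747, 706 and 648 in control sham hearts. In Maf the BCAA-free groups overlapped (0.26 ± 0.12, adjusted p = 0.253), and the difference did not pass the threshold.

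PU.1 binds purine-rich sites near the start of many macrophage genes. The letters GAGGAAGT, or ACTTCCTC on the other strand, were searched in the RefSeq promoters of GRCm38.p6, each from 250 bases before to 50 bases after the start site. Of 34 members, 27 had a promoter, and 4 of them held the letters (14.8%), against 3.69% of 27025 genes with a promoter. They are shown because Spi1 is itself a member that rose and these are the members with the letters of its product; Ctss and F13a1 rose on the BCAA-free diet, while Cd53 and Pf4 did not pass the threshold. Capitals mark the match, and each promoter reads from 5′ to 3′ on the strand of its gene. The Ctss promoter is at chr3:95526536-95526835 on the plus strand, that of Cd53 at chr3:106790100-106790399 on the minus strand, that of Pf4 at chr5:90772185-90772484 on the plus strand, and one of the 2 promoters of F13a1 at chr13:37049164-37049463 on the minus strand. The other F13a1 promoter, at chr13:37050195-37050494, holds the annotated start of the gene and had 0 matches.
Ctss: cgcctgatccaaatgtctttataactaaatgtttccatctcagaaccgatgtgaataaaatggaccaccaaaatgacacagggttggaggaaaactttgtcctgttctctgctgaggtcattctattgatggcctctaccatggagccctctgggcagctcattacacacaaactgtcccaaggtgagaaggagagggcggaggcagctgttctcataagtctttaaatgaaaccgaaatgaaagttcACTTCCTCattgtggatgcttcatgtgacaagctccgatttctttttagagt
F13a1: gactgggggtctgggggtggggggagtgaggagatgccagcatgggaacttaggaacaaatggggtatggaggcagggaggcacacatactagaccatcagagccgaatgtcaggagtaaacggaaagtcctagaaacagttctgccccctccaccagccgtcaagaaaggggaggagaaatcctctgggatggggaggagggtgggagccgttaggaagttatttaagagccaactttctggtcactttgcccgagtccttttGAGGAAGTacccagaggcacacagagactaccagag
Cd53: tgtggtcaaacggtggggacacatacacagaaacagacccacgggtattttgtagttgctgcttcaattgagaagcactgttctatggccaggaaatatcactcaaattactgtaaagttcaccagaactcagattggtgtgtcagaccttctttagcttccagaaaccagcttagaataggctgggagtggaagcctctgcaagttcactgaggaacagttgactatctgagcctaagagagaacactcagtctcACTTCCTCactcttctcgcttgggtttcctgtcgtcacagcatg
Pf4: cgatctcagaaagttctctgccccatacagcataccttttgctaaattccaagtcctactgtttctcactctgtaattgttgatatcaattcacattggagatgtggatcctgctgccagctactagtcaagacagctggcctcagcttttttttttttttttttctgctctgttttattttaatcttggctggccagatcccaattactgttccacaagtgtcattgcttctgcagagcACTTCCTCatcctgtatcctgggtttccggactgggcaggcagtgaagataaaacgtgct
All 4 matches begin within 14 bases of the start site, at -2 in Ctss, 14 in F13a1, 6 in Cd53 and -10 in Pf4. They read ACTTCCTC in Ctss, Cd53 and Pf4 and GAGGAAGT in F13a1. The letters CACGTG, which factors of the MITF and TFE family bind at lysosomal genes, were in 0 of 27 members and in 8.09% of genes. A match of letters is a description of the sequence and does not show binding.

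The calls on the BCAA-free diet became fewer when any 1 of the sham libraries was left out. Trem2, Lgals3, Lyz2, Ctss, Mpeg1, Fcgr2b, Fcgr3, Tyrobp and Csf1r stayed past the threshold in every alternative run, and the other 15 calls were lost in at least 1 of them, at adjusted p = 0.0507 to 0.183. Without BCAA-free sham replicate 1, 2 or 3, 10 of 34 members passed the threshold in each case, where 0.554%, 0.605% and 0.566% of all genes rose, so calls fell over all genes too.

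On the control diet the same surgery gave 0 calls among the 34 members. With limma, 0 rose and 0 fell, where 3.4% of all genes rose and 1.94% fell, and 10 members were at an unadjusted p under 0.05, as were 22.7% of all genes. The edgeR test also called 0 (2.94% of all genes were higher) and DESeq2 called 7, all higher (5.69% of all genes), namely Cd68, Trem2, Laptm5, Ctss, Ccr2, Lgals3 and Maf. Even so, 32 of 34 differences were above 0, with a median of 0.33 against 0.0017 over all genes. Of the recruited or activated genes, 3 had the largest differences of all members: Ccr2 1.34 ± 0.44 (adjusted p = 0.111), Lgals3 1.10 ± 0.34 (adjusted p = 0.0966), and Trem2 1.08 ± 0.29 (adjusted p = 0.0666). Gpnmb was at 0.59 ± 0.30 (adjusted p = 0.284). The 5 resident genes had a median of 0.30 and ranged from -0.46 for Timd4 to 0.34 for Cd163.

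In 9 members every control TAC library lay above every control sham library, as in 14.5% of all genes. The 3 control TAC libraries differed among themselves by 3.55-fold in Ccr2 and 3.24-fold in Lgals3, where the control sham libraries differed by 2.09-fold in Ccr2 and 1.11-fold in Lgals3. Leaving out libraries changed the count: 3 members were called without control TAC replicate 2 (Trem2, Lgals3 and Maf, where 1.79% of all genes rose), 1 without control sham replicate 1 (Cd163, 1.36%) and 0 without control TAC replicate 1 (1.71%). When replicates 2 and 3 were both dropped from control TAC, 13 were called (3.41% of all genes rose) and the median was 0.84, with 1.93 for the recruited or activated genes against 0.67 for them without replicate 1; that fit has a single TAC library, which is assumed to vary like the sham libraries. Control TAC replicate 1 also held the largest sum of 8 fibroblast markers, 77967 normalised reads, against 42269 and 43985 in the other control TAC libraries and 29633 to 32517 in control sham hearts. In BCAA-free TAC hearts the fibroblast sum was 72539, 45662 and 38157, against 22872 to 25394 in BCAA-free sham hearts, so it was highest in the same replicate as most macrophage genes. Its part in the macrophage differences was not tested.

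**Figure D3:**
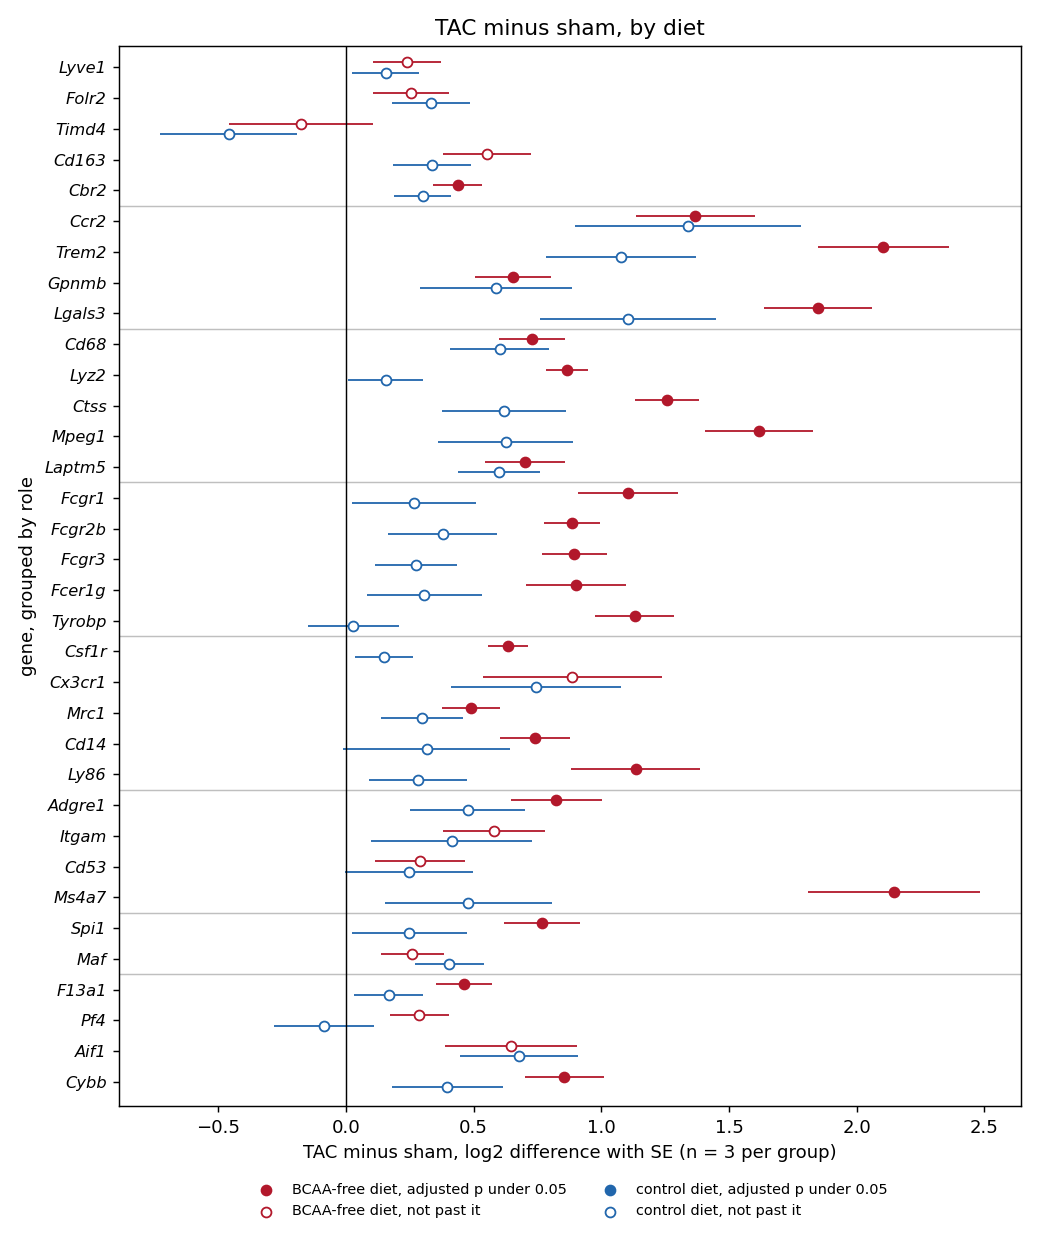
Log2 difference TAC minus sham with its SE (n = 3 libraries per group) for each of the 34 members, grouped by role, on the BCAA-free diet (red) and the control diet (blue); filled points have a limma adjusted p under 0.05. On the BCAA-free diet 24 points are filled and on the control diet 0, and the blue error bars are longer for Ccr2, Lgals3 and most other members.

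Whether the response to TAC itself differed between diets was tested as a difference of differences over all 12 libraries, in which 0 of 34 members passed the threshold. Over all genes 0.00644% passed upward in limma and 0.00644% in edgeR, which also called 0 members, and 9 members were at an unadjusted p under 0.05, against 10.1% of all genes. DESeq2 called 1, Tyrobp (1.11, adjusted p = 0.0133), where it called 0.264% of all genes higher and 0.432% lower. Over the alternatives the Tyrobp adjusted p ran up to 0.423. In limma, Tyrobp differed by 1.10 ± 0.25 (unadjusted p = 0.000652, adjusted p = 0.162), with a TAC difference of 1.13 on the BCAA-free diet and 0.03 on the control diet. Ms4a7 (1.67, 95% interval 0.54 to 2.79), Lyz2 (0.71, 0.31 to 1.11) and Csf1r (0.48, 0.17 to 0.80) were further members whose intervals lay above 0 before adjustment. The median over the members was 0.36, against -0.00077 over all genes, and it was -0.04 with control TAC replicates 2 and 3 left out. For the recruited or activated genes the median was 0.41, with 0.89 without control TAC replicate 1 and -0.37 without replicates 2 and 3, so its sign rested on which control TAC libraries were used. For Ccr2 the difference was 0.03, negative in edgeR and DESeq2 and without several of the libraries, with an interval of -1.15 to 1.21, an interval that holds no difference as well as large ones in either direction. The 24 calls on one diet and the 0 on the other therefore do not show that the diets differed in their response.

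Averaged over both diets, TAC raised 26 of 34 members (9.67% of all genes rose), with a median of 0.59 against -0.0049 over all genes. The 4 recruited or activated genes were all among them, at 1.59 for Trem2, 1.48 for Lgals3, 1.35 for Ccr2 and 0.62 for Gpnmb, and 2 of 5 resident genes were, Cd163 at 0.44 and Cbr2 at 0.37. The median was 1.41 for the recruited or activated genes and 0.29 for the resident genes. Of the 26, 18 held in every alternative, and Cd163, Gpnmb, Fcer1g, Mrc1, Spi1, Maf, F13a1 and Aif1 were lost in at least 1.

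The balance of the 2 kinds of gene was followed as the summed level per kilobase in each library. The resident genes summed to 949, 1017 and 1258 normalised reads per kilobase in BCAA-free TAC hearts, 774, 849 and 844 in BCAA-free sham hearts, 1383, 1077 and 1296 in control TAC hearts and 1166, 975 and 1002 in control sham hearts. The recruited or activated genes summed to 360.4, 299 and 209.9 in BCAA-free TAC hearts, 95.5, 81.5 and 80.3 in BCAA-free sham hearts, 373, 127 and 167 in control TAC hearts and 91.2, 91.1 and 94.7 in control sham hearts. The ratio of recruited to resident sums was 0.380, 0.294 and 0.167 in BCAA-free TAC hearts (mean 0.280 ± 0.107 SD), 0.123, 0.0960 and 0.0951 in BCAA-free sham hearts (0.105 ± 0.0161), 0.270, 0.118 and 0.129 in control TAC hearts (0.172 ± 0.0848) and 0.0782, 0.0934 and 0.0945 in control sham hearts (0.0887 ± 0.00912). On each diet all 3 TAC ratios were above the sham ratios, and in each TAC group replicate 1 was the highest. The ratio is a description, with no test.

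Lgals3 made up 70.2% of the recruited sum in BCAA-free TAC, 62.8% in BCAA-free sham, 67.8% in control TAC and 66.0% in control sham hearts, and Cbr2 made up 47.2%, 45.5%, 48.7% and 46.8% of the resident sum in the same groups. Lgals3 was thus most of the recruited sum, and Cbr2 the largest single share of the resident sum. Gpnmb made up 9.34% of the recruited sum in BCAA-free TAC, 19.8% in BCAA-free sham, 6.04% in control TAC and 8.88% in control sham hearts.

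**Figure D4:**
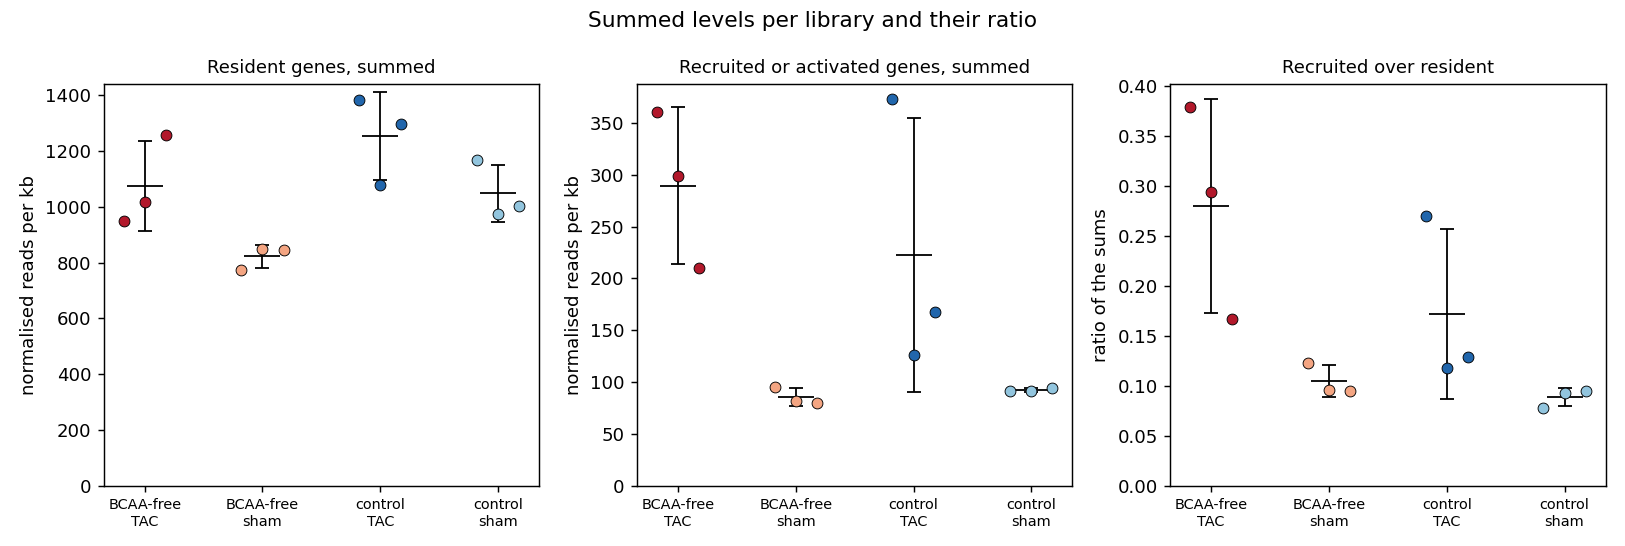
Summed normalised reads per kilobase of the 5 resident genes (left) and the 4 recruited or activated genes (middle), and the ratio of the second sum to the first (right), in each library, with the group mean (bar) and SD (error bar, n = 3). The ratio is 0.167 to 0.380 in BCAA-free TAC hearts, 0.0951 to 0.123 in BCAA-free sham hearts, 0.118 to 0.270 in control TAC hearts and 0.0782 to 0.0945 in control sham hearts.

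Blood monocytes, which share Ccr2, were checked by 6 markers. Their sum was 7414, 4116 and 3764 normalised reads in BCAA-free TAC hearts, 1989 to 2355 in BCAA-free sham hearts, 8466, 3979 and 3997 in control TAC hearts and 2491 to 2565 in control sham hearts, but nearly all of it came from Fn1 and Vcan, matrix genes that fibroblasts also make. The defining monocyte genes were low: Ly6c2 had 8 to 57 reads in BCAA-free TAC, 18 to 31 in BCAA-free sham, 9 to 26 in control TAC and 9 to 25 in control sham libraries. Plac8 had 10 to 24, 5 to 7, 16 to 72 and 3 to 10 reads in the same groups, with the 72 in control TAC replicate 1. The part of monocytes in the Ccr2 level was not tested.

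The diet itself, in hearts without overload, came with lower levels of many macrophage genes. Between BCAA-free sham and control sham hearts, 6 of 34 members were lower (1.76% of all genes) and 1 was higher (1.05% of all genes), with a median log2 difference of -0.33 against 0.0021 over all genes. In 19 members every BCAA-free sham library lay below every control sham library, as in 11.8% of all genes. The members that fell were Ms4a7 (-1.13 ± 0.25, adjusted p = 0.0399), Spi1 (-0.69 ± 0.15, adjusted p = 0.0369), Fcgr2b (-0.52 ± 0.12, adjusted p = 0.0450), Fcgr3 (-0.46 ± 0.11, adjusted p = 0.0432), Mrc1 (-0.41 ± 0.08, adjusted p = 0.0290) and Cbr2 (-0.39 ± 0.08, adjusted p = 0.0318). The member that rose was Gpnmb, 1.99-fold (1.00 ± 0.18, adjusted p = 0.0162). The 5 resident genes ranged from -0.70 for Timd4 (95% interval -1.27 to -0.13 before adjustment, adjusted p = 0.179) to -0.14 for Folr2, all below 0, and Trem2 was at -0.81 ± 0.21 (adjusted p = 0.0618).

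DESeq2 called 11 members lower (3.26% of all genes) and 1 higher (1.94%). These calls also depended on single libraries. Each of the 7 was lost in at least 1 alternative, at adjusted p = 0.0508 to 0.166, and 0 were called without BCAA-free sham replicate 1, 2 or 3. Over all genes the share called in either direction also fell, to 0.638%, 0.438% and 0.567% in those fits, against 2.81% with all libraries. Without control sham replicate 1, 4 members and 2.34% of all genes were called, and without control sham replicate 2, 3 members and 1.8%. The fibroblast sum was also lower in BCAA-free sham than in control sham hearts (22872 to 25394 against 29633 to 32517), and 5 of 8 fibroblast markers fell. All 7 T cell markers had higher levels in BCAA-free sham hearts (median 1.71, 2 of them called), with sums of 313, 394 and 347 normalised reads, against 151, 135 and 39.1 in control sham hearts. The 3 adipocyte markers tested were also higher (median 1.29, 2 of them called), with sums of 794, 539 and 422, against 259, 241 and 253. The part of these cell types was not tested. The comparison uses the same BCAA-free sham libraries as the TAC comparison on that diet, so a low value there enters both. Set side by side, BCAA-free TAC minus BCAA-free sham and BCAA-free sham minus control sham were 2.15 and -1.13 for Ms4a7, 0.77 and -0.69 for Spi1, 0.89 and -0.52 for Fcgr2b, 0.89 and -0.46 for Fcgr3, 0.49 and -0.41 for Mrc1, 0.44 and -0.39 for Cbr2 and 0.65 and 1.00 for Gpnmb.

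In TAC hearts the diets gave 0 calls among the members. With limma, 0 members were higher (1.27% of all genes) and 0 lower (2.11%), with 3 at an unadjusted p under 0.05 (19.9% of all genes), and the median was 0.01 against 0.0043 over all genes. The edgeR test called 0 (1.12% of all genes were higher) and DESeq2 called 2 (3.46%), Gpnmb and Lyz2. Gpnmb was the single member whose BCAA-free TAC libraries were all above the control TAC libraries, as 12.6% of all genes were, with a difference of 1.07 ± 0.28 (adjusted p = 0.0793). Lyz2 differed by 0.47 ± 0.16 (adjusted p = 0.142) and Tyrobp by 0.58 ± 0.20 (adjusted p = 0.157). Many of the other intervals were wide: -1.04 to 0.82 for Ccr2, -0.58 to 1.00 for Trem2 and -0.29 to 1.43 for Lgals3, and the sign of all 3 turned when some TAC libraries were left out. The 5 resident genes ranged from -0.42 for Timd4 to -0.11 for Cd163. The median of the members was 0.25 without control TAC replicate 1 and -0.37 without replicates 2 and 3. Without control TAC replicate 1, 2 members were called (0.669% of all genes were higher), Gpnmb (1.37, adjusted p = 0.0317) and Lyz2 (0.66, adjusted p = 0.0320), and over all alternatives their adjusted p ran from 0.00982 to 0.475 and from 0.0209 to 0.799.

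Averaged over surgery, Gpnmb was the 1 member higher on the BCAA-free diet, 2.05-fold (1.03 ± 0.17, adjusted p = 0.00277), and Cbr2 the 1 lower (-0.32 ± 0.07, adjusted p = 0.0140); 5.19% of all genes were higher and 6.57% lower. Both calls held in every alternative run. Over all genes 11.8% were called in either direction. The number of members called was 5 without BCAA-free TAC replicate 1 (16.1% of all genes), 4 without BCAA-free TAC replicate 3 (10.1%), 6 without control TAC replicate 2 (8.08%) and 8 without control TAC replicates 2 and 3 (5.5%), so the 5 and the 4 were near the share over all genes. The median over the members was -0.16, against 0.0070 over all genes, and the resident genes had a median of -0.25.

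**Figure D5:**
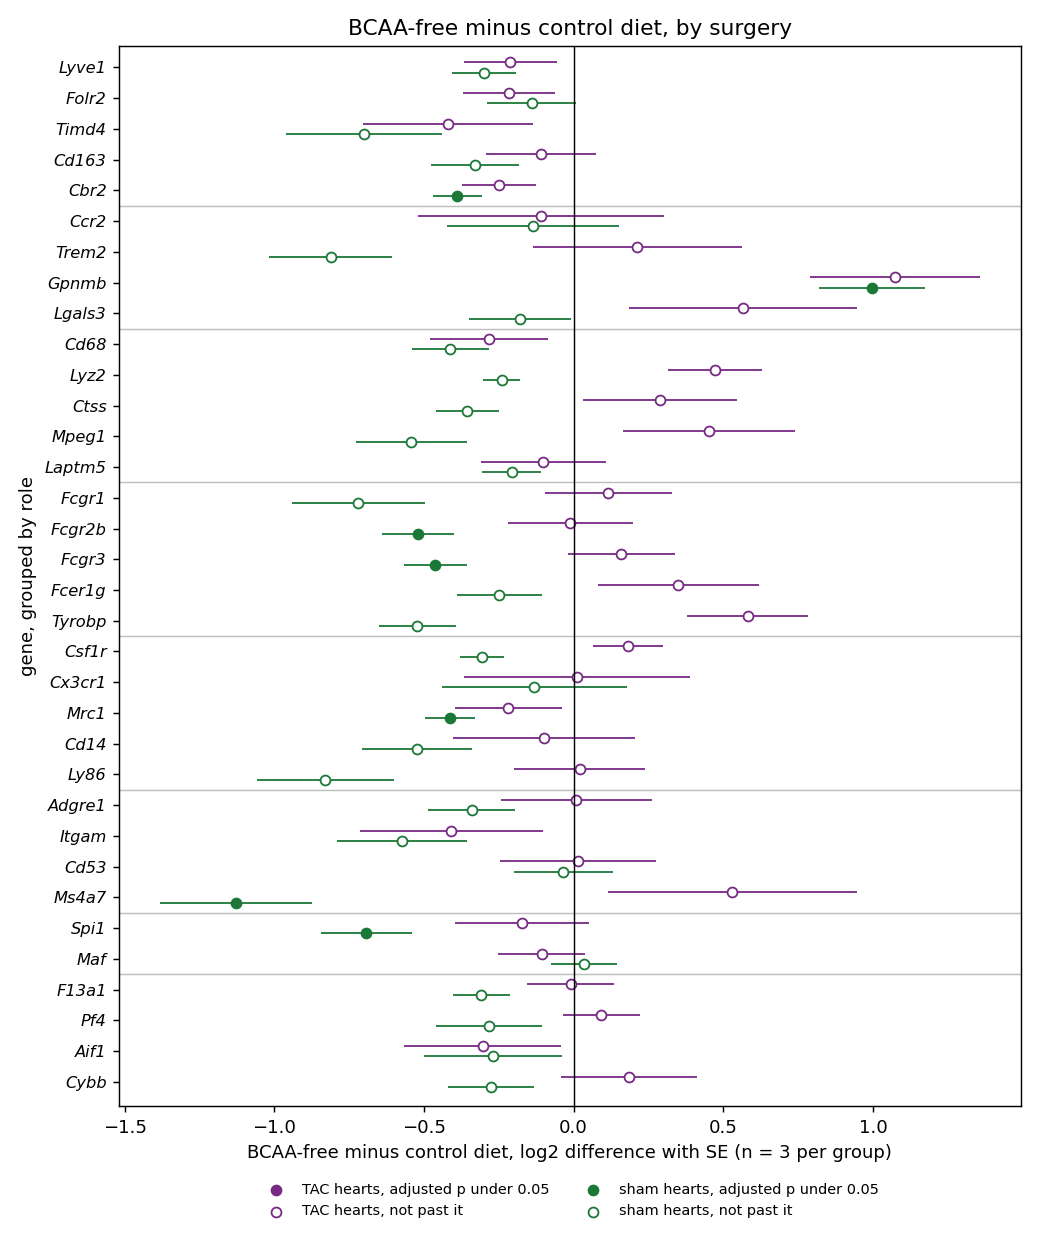
Log2 difference BCAA-free minus control diet with its SE (n = 3 libraries per group) for each of the 34 members, grouped by role, in TAC hearts (purple) and sham hearts (green); filled points have a limma adjusted p under 0.05. In sham hearts Gpnmb is the filled point to the right of 0 and Ms4a7, Spi1, Fcgr2b, Fcgr3, Mrc1 and Cbr2 are filled to the left, and in TAC hearts 0 points are filled.

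A further list of 66 genes of macrophage biology, none of them a member, was counted in each comparison. With TAC on the BCAA-free diet, 20 of 60 tested rose (2.94% of all genes) and 0 fell (1.37%), with a median of 0.38. They included the complement chains C1qc (0.90 ± 0.10, adjusted p = 0.00189) and C1qb (1.17 ± 0.14, adjusted p = 0.00273), Apoe (0.78 ± 0.09, adjusted p = 0.00273), which carries lipid out of cells, and Hmox1 (1.03 ± 0.12, adjusted p = 0.00273), which breaks down haem. By group, 6 of 12 complement and other markers, 5 of 10 genes of efferocytosis and lipid handling, 3 of 6 growth factors and receptors and 2 of 10 genes of monocyte recruitment rose. With TAC on the control diet, 5 of 62 rose (3.4% of all genes) and 3 fell (1.94%), with a median of 0.15. Of 10 genes of monocyte recruitment, 1 rose and 2 fell, and of 10 genes of efferocytosis and lipid handling 0 rose and 1 fell. The monocyte chemokine Ccl8 (2.32 ± 0.47, adjusted p = 0.0258), osteopontin, encoded by Spp1 (2.49 ± 0.45, adjusted p = 0.0173), the lysosomal protease Ctsz (0.70 ± 0.13, adjusted p = 0.0209) and the transcription factor Cebpb (1.49 ± 0.30, adjusted p = 0.0258) were among the 5. Averaged over diets 23 of 60 rose (9.67% of all genes) and 3 fell (7.29%).

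In sham hearts on the BCAA-free diet the complement chains C1qc (-0.52 ± 0.07, adjusted p = 0.00396), C1qb (-0.61 ± 0.08, adjusted p = 0.00432) and C1qa (-0.55 ± 0.09, adjusted p = 0.00933) were lower. So was the cholesterol exporter Abca1 (-0.74 ± 0.13, adjusted p = 0.0174). The complement chains rose with TAC on that diet, but both comparisons use the same BCAA-free sham libraries, so a low value there enters both with opposite sign. In all, 5 of 59 were lower (1.76% of all genes) and 2 were higher (1.05%). In TAC hearts, 3 of 63 were higher on the BCAA-free diet, the lysosomal proteases Ctsd (0.47 ± 0.09, adjusted p = 0.0236) and Ctsl (0.43 ± 0.09, adjusted p = 0.0329) and Apoe (0.66 ± 0.13, adjusted p = 0.0310). Cebpb was lower (-0.98 ± 0.14, adjusted p = 0.00767), and over all genes 1.27% were higher and 2.11% lower. Cell cycle markers differed between the groups in another pattern, with the highest sums in control TAC hearts. The 5 markers summed to 398, 142 and 167 normalised reads in BCAA-free TAC, 74.8 to 114 in BCAA-free sham, 2152, 1958 and 2009 in control TAC and 173 to 540.0 in control sham hearts. In TAC hearts all 5 were lower on the BCAA-free diet (median -3.02, limma adjusted p under 0.05 for each). Whether dividing macrophages took part in that was not tested.

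The authors' deposited tables, whose fold changes and p-values come from the authors' own comparison, put 25 members past an adjusted p of 0.05 with TAC on the BCAA-free diet (4.74% of all genes with an adjusted p) and 7 on the control diet (5.83%), all higher in TAC hearts. For the diet, the authors' deposited tables give 1 member higher (1.94%) and 11 lower (3.27%) in sham hearts and 2 higher in TAC hearts (3.68%).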

How the data were processed

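Polyadenylated RNA from whole hearts was sequenced, 12 libraries in 4 groups. The submitters' processing notes name Trimmomatic 0.36, STAR 2.5.2b, Subread 1.5.2 and DESeq2 and the build GRCm38, and whether strand was used is not given in the sources used here. The authors' deposited signal columns hold gene reads scaled by library size factors, which were set per table. The authors' deposited tables also give log2 fold changes and p-values of each comparison, which were copied unchanged where they are named. Whole reads were recovered from the deposited values: 100% of values were whole within 0.001 reads, and the reads of a library were the same in both tables that hold it.

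Within each table, limma 3.58.1 (R 4.3.3) with a mean-variance trend was run on log2(value + 4) after genes whose mean fell under 10 were left out, with Benjamini-Hochberg adjustment over all genes tested and a threshold of 0.05. Fold changes refer to log2(value + 4), on which differences of low genes come out smaller. The difference and mean of the TAC responses were fitted over the TAC tables' 12 columns together, and the mean diet effect over the diet tables' 12. The limma fits were checked on counts simulated with the same dispersion for every gene. That check does not cover genes that vary more between libraries, such as Ccr2 and Lgals3 in control TAC hearts. Alternatives were edgeR 4.0.16 and DESeq2 1.42.0 on recovered read counts, a pseudocount of 1, other filters, quantile normalization, a replicate block and leaving out libraries. Levels shown are recovered reads divided by size factors over all 12 libraries, per kilobase of GENCODE M21 exons where genes are compared. Intervals are at 95%.

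The members and lists were chosen with earlier results of these data known. Values in every library are given for the resident and recruited genes and, in each other role, for the 2 members with the smallest p for the mean TAC effect; other macrophage genes are named where past the threshold, at most 4 per comparison, smallest p first. Tables normalised separately were not tested against each other.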

Additional observations from a re-analysis of the deposited data

How the results depend on the processing

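Counts of members past the threshold, over the fits that leave out 1 library each, ran from 0 to 3 for TAC on the control diet, 10 to 25 for TAC on the BCAA-free diet, 0 to 6 for the diet in sham hearts, 0 to 2 for the diet in TAC hearts, 0 to 0 for the difference of the TAC responses, 19 to 29 for the mean TAC effect and 2 to 6 for the mean diet effect. Over the 15451 to 16148 genes tested, calls moved too. TAC on the control diet raised 215 to 418 and lowered 85 to 241. On the BCAA-free diet it raised 88 to 717 and lowered 17 to 482. The diet raised 17 to 379 and lowered 51 to 641 in sham hearts. In TAC hearts it raised 28 to 465 and lowered 110 to 579. The difference gave 0 to 4 up and 2 to 11 down. The mean TAC effect gave 1022 to 1590 up and 710 to 1299 down. The mean diet effect gave 435 to 1169 and 627 to 1315. The ratio of recruited to resident sums ran from 0.230 to 0.337 in BCAA-free TAC, 0.0956 to 0.110 in BCAA-free sham, 0.123 to 0.200 in control TAC and 0.0858 to 0.0940 in control sham hearts. With DESeq2, 7 members were called for TAC on the control diet (5.69% of all genes rose and 4.01% fell). For the diet it called 12 in sham hearts (1.94% up, 3.26% down) and 2 in TAC hearts (3.46% up, 3.87% down). It called 1 member for the difference (0.264% up, 0.432% down) and 5 for the mean diet effect (6.85% up, 8.57% down). The 2 and the 5 were near the share over all genes. Without control TAC replicates 2 and 3 together, 13 were called for TAC on the control diet and 8 for the mean diet effect. As CPM without gene length, the ratio was 0.151 in BCAA-free sham and 0.119 in control sham hearts. Over all 34 members, 7 comparisons and every alternative, 161 of 3869 log2 differences changed sign, none of them past the threshold in either fit: 52 in the difference of the TAC responses, 49 in the diet in TAC hearts and 39 in the mean diet effect. Among the 147 differences of the resident and recruited genes and of members with an unadjusted p under 0.05, 2140 values kept their direction and side of the threshold, 68 passed it anew, 131 no longer passed and 32 changed sign. Without control TAC replicates 2 and 3 together, the diet in TAC hearts gave -0.51 for Trem2 and -0.37 for Lgals3, the difference of the TAC responses -1.05 for Ccr2, -0.54 for Gpnmb, -0.20 for Lgals3, -0.043 for Lyve1 and -0.037 for Cbr2, and the mean diet effect -0.27 for Lgals3. The difference was -0.11 for Ccr2 in both edgeR and DESeq2, and for Gpnmb -0.036 in edgeR and -0.046 in DESeq2. With 1 library left out, the diet in TAC hearts ran from -0.34 to 0.087 for Cd163, -0.45 to 0.43 for Ccr2 and -0.066 to 0.58 for Trem2. The difference ran from -0.086 to 0.19 for Lyve1, -0.19 to 0.033 for Folr2, -0.0092 to 0.41 for Cd163, -0.32 to 0.57 for Ccr2 and -0.26 to 0.37 for Gpnmb. Ccr2 ran from -0.29 to 0.15 in the mean diet effect and -0.44 to 0.039 with the diet in sham hearts, and Timd4 from -0.40 to 0.015 with TAC on the BCAA-free diet. The causes were not tested. With 3 libraries per group and as few as 23 reads of a member in a library, differences of the lowest genes are imprecise.

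Libraries of different groups share replicate numbers. The deviations of same-numbered libraries correlated at -0.0885 to 0.221, with the highest value for replicate 1 of BCAA-free TAC and control TAC. The numbers were not treated as pairs, but these correlations do not exclude pairs. With the replicate block, 1 member was called for TAC on the control diet, where 516 of 15873 genes rose and 289 fell. For TAC on the BCAA-free diet it was 22 (of 15936 genes, 406 rose and 119 fell). For the diet in sham hearts it was 7 (of 15596, 280 rose and 433 fell). The diet in TAC hearts gave 3 (of 16222, 618 rose and 657 fell). The difference gave 0 (of 15524, 0 rose and 3 fell). The mean TAC effect gave 26 (of 15524, 1488 rose and 1125 fell). The mean diet effect gave 4 (of 15458, 819 rose and 1012 fell). The 3 and the 4 were near the share over all genes. Without the block, 540 genes rose and 308 fell for TAC on the control diet, and 469 rose and 219 fell on the BCAA-free diet. For the diet, 163 rose and 275 fell in sham hearts, and 206 rose and 342 fell in TAC hearts. Calls over all genes were thus more with the block for the diet in sham and in TAC hearts, and fewer for TAC on either diet. DESeq2 with a replicate block was not run.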
